A study of Macaca mulatta with 8 samples.

Results

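The genes described here are the 10 genes of the retinal visual cycle STRA6, LRAT, RPE65, RDH5, RGR, RLBP1, RBP3, ABCA4, RDH8 and RDH12. They were chosen by symbol for their role in retinoid handling, and all 10 were found among the 26533 features of the expression matrices. RPE65 refers throughout to the macaque gene and was kept apart from huRPE65, the feature that stands for the human transgene.

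The visual cycle returns the light-spent chromophore of the photoreceptors to its light-sensitive form. Photon capture turns 11-cis-retinal into all-trans-retinal inside the opsin of rod and cone outer segments, where ABCA4 moves it across the disc membrane and RDH8 reduces it to all-trans-retinol. RDH12 is a retinal reductase of the photoreceptor inner segment. RBP3, also called interphotoreceptor retinoid-binding protein, carries retinoids across the space between photoreceptors and the retinal pigment epithelium (RPE). In the RPE, STRA6 takes up retinol from the blood, LRAT esterifies it, RPE65 isomerises the ester to 11-cis-retinol, RDH5 oxidises that alcohol to 11-cis-retinal, RLBP1 (CRALBP) binds the 11-cis retinoids, and RGR is a retinal-binding opsin. RLBP1 and RGR are also known from Müller glia, the radial glia that span the retina.

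The samples were single-cell suspensions of retina from 2 male rhesus macaques whose eyes had received subretinal adeno-associated virus (AAV). In NHP1, aged 5 years, the vector was AAV2-CAG-hRPE65, in which the ubiquitous CAG promoter drives human RPE65, and the libraries analysed here were the uninjected area of the right and of the left eye. In NHP2, aged 6 years, each eye had a bleb of AAV8-GRK1-hRPGR and a separate bleb of AAV8-GRK1-mScarlet, a reporter vector, both under the photoreceptor promoter GRK1, and each eye gave an uninjected, an hRPGR and an mScarlet library. The paper reports a higher dose per eye of the engineering-grade hRPGR vector than of the laboratory-grade mScarlet vector. By the study's methods every eye was given subtenon triamcinolone and every left eye also intravitreal adalimumab, an antibody to TNF-alpha. Each library came from a 4 mm punch whose retina had been lifted off the RPE before dissociation, so RPE cells were present only as carry-over. The right and left eye of 1 animal are the only replicates of an area, so the p-values below measure the spread between eyes of that animal, and area and position in the retina cannot be told apart.

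The 8 libraries held 90634306 to 146519011 unique molecular identifiers (UMIs, each standing for 1 captured transcript), and 9562 to 15080 cells per library passed the filters with a median of 4606 to 6036 UMIs. After removal of the 8604 cells with the highest doublet scores of their library, 83192 cells fell into 61 clusters. Of these clusters 38 could be named from marker genes and 23 could not, with 10.7% to 50.4% of a library's cells unnamed. The named classes held 36660 rod-like, 2704 cone-like, 6876 Müller glia-like, 6163 bipolar-like and 194 RPE-like cells, beside smaller neuronal and immune classes. The 10 genes and 33 other retinoid genes took no part in the clustering or the naming. Any 2 libraries shared 135 to 255 cell barcodes, 1.39% to 2.16% of the smaller library. Levels are given as CPM, the UMIs of a gene for every 1000000 UMIs summed over the cells of a class in a library, and a class entered a mean only in libraries with at least 20 of its cells. The library labelled NHP1 uninjected left went against its label, since its rod-like cells held 619 CPM of huRPE65 against at most 0.043 CPM in the rod-like cells of any other library, and the RPE65 results in rod-like cells are given with and without it.

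RPE-like cells carried the highest level of STRA6, LRAT, RPE65, RDH5 and RGR, with no overlap with any other class. Only 3 libraries held at least 20 such cells, namely NHP1 uninjected right (79 cells), NHP2 uninjected left (56) and NHP2 hRPGR left (26), and the values are given in that order. Their identity rested on 9 other RPE markers, of which 6 were raised over the mean of the other classes. The 9 RPE markers summed to 53328 to 111473 CPM there against 125 to 323 CPM in rod-like cells. The 9 rod markers summed to 2861 to 8699 CPM in the RPE-like cells.

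STRA6 (chromosome 7, 51185701 to 51218467, minus strand, Mmul_10, 18 exons), the retinol receptor, stood at 1292, 669 and 1437 CPM in RPE-like cells. No other class exceeded a mean of 1.56 CPM, and rod-like cells held 22 STRA6 UMIs in all 8 libraries together. LRAT (chromosome 5, 152379664 to 152385106, plus strand, 3 exons), which esterifies retinol, was at 1137, 903 and 1197 CPM in RPE-like cells and at 0.31 CPM on average in rod-like cells. Outside the RPE-like class both genes were near the limit of detection at this depth.

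RPE65 (chromosome 1, 155973615 to 155996422, plus strand, 14 exons), the isomerohydrolase, lay closest together among the RPE-like libraries, at 2805, 3349 and 3363 CPM. Smaller sets of 7, 13 and 5 RPE-like cells gave 2557, 2351 and 2923 CPM in NHP2 uninjected right, hRPGR right and mScarlet right, and 140 CPM in the 8 such cells of NHP1 uninjected left. Those 8 cells were also low in STRA6 (27.9 CPM) and high in RBP3 (2205 CPM, beside 2370.04 CPM in the 5 cells of mScarlet right), against 327, 847 and 375 CPM of RBP3 in the 3 larger sets. RPE65 begins 106 bp downstream of DEPDC1 on the same strand.

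RDH5 (chromosome 11, 55279602 to 55284459, plus strand, 5 exons), which oxidises 11-cis-retinol, reached 11981, 5594 and 7080.4 CPM in RPE-like cells. Unlike STRA6 and LRAT it was counted in every other class, from a mean of 76.8 CPM in plasma-like cells to 263 CPM in T/NK-like cells (243 to 299 CPM), with 223 CPM in Müller glia-like and 222 ± 28.1 CPM (SD, n = 8) in rod-like cells. The level in T/NK-like cells was 113% to 467% of that in the free RNA of the same library (barcodes of 100 to 1000 UMIs, taken as empty droplets), whereas ABCA4 in the same T/NK-like cells was at 7.92% to 36.7% of its free level. RDH5 starts 137 bp downstream of BLOC1S1 on the same strand. No feature under the symbol BLOC1S1 was found, so its level could not be set beside that of RDH5. Whether reads of BLOC1S1 were counted as RDH5 was not tested.

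RGR (chromosome 9, 53790609 to 53805842, minus strand, 7 exons), the RPE and glial retinal opsin, stood at 17089.8, 10419.7 and 13524 CPM in RPE-like cells. Müller glia-like cells came next with 20.4 CPM (12.9 to 27.5 CPM over 8 libraries), and rod-like cells held 0.84 to 8.98 CPM. RGR was higher in Müller glia-like than in rod-like cells in 8 of 8 libraries, with a median ratio of 19.0 (3.06 to 31.1). After each cell was thinned to 3000 UMIs, 4.99% to 9.71% of Müller glia-like cells had an RGR UMI (8.78% to 16.6% unthinned, median depth 3843 to 5984 UMIs), against 0.125% to 2.35% of rod-like cells (0.51% to 5.65% unthinned, median depth 4791.5 to 7386.5 UMIs).

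RLBP1 (chromosome 7, 67984773 to 67996785, minus strand, 9 exons), the 11-cis-retinoid carrier, was the only member highest in Müller glia-like cells. It stood at 4658 ± 488 CPM (SD, n = 8) there, from 3818 to 5420 CPM, and at 4527, 3599 and 3880 CPM in RPE-like cells, so the 2 classes overlapped. Every other class had a mean of at most 31.5 CPM, and rod-like cells had 8.03 to 16.9 CPM. Müller glia-like cells exceeded rod-like cells in each library by at least 228-fold.

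RPE65 was also counted in Müller glia-like cells, at 1.74 to 20.6 CPM. The 20.6 CPM was in NHP1 uninjected left, and the next highest level was 11.1 CPM in NHP2 mScarlet right. RPE65 in Müller glia-like cells exceeded the level of bipolar-like cells in 8 of 8 libraries and that of rod-like cells in 6 of 8. In the NHP2 mScarlet right and left libraries the Müller glia-like cells held 57 and 51 RPE65 UMIs beside 0 STRA6 UMIs in each, where 0 of 57 and 0 of 51 allow a STRA6 to RPE65 ratio of up to 0.0669 and 0.0750 (exact 95% limits, which cover counting error only). In the Müller glia-like cells of NHP2 uninjected left, 11 STRA6 UMIs stood beside 81 of RPE65, a ratio of 0.14 (exact 95% interval 0.065 to 0.26). The ratio was 0.46, 0.20 and 0.43 in the 3 larger RPE-like sets and 0.19 (0.071 to 0.43) in the 5 RPE-like cells of mScarlet right, and 0.13 (0.039 to 0.33) and 0.14 (0.041 to 0.34) in the free RNA of mScarlet right and left. The upper limits of the mScarlet Müller glia-like cells lay above the lower limits of the free RNA of the same libraries. Whether these ratios differed was not tested. RPE65 itself was at 11.1 and 9.82 CPM in the Müller glia-like cells of mScarlet right and left, beside 1.45 and 1.77 CPM in that free RNA.

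**Figure D1:**
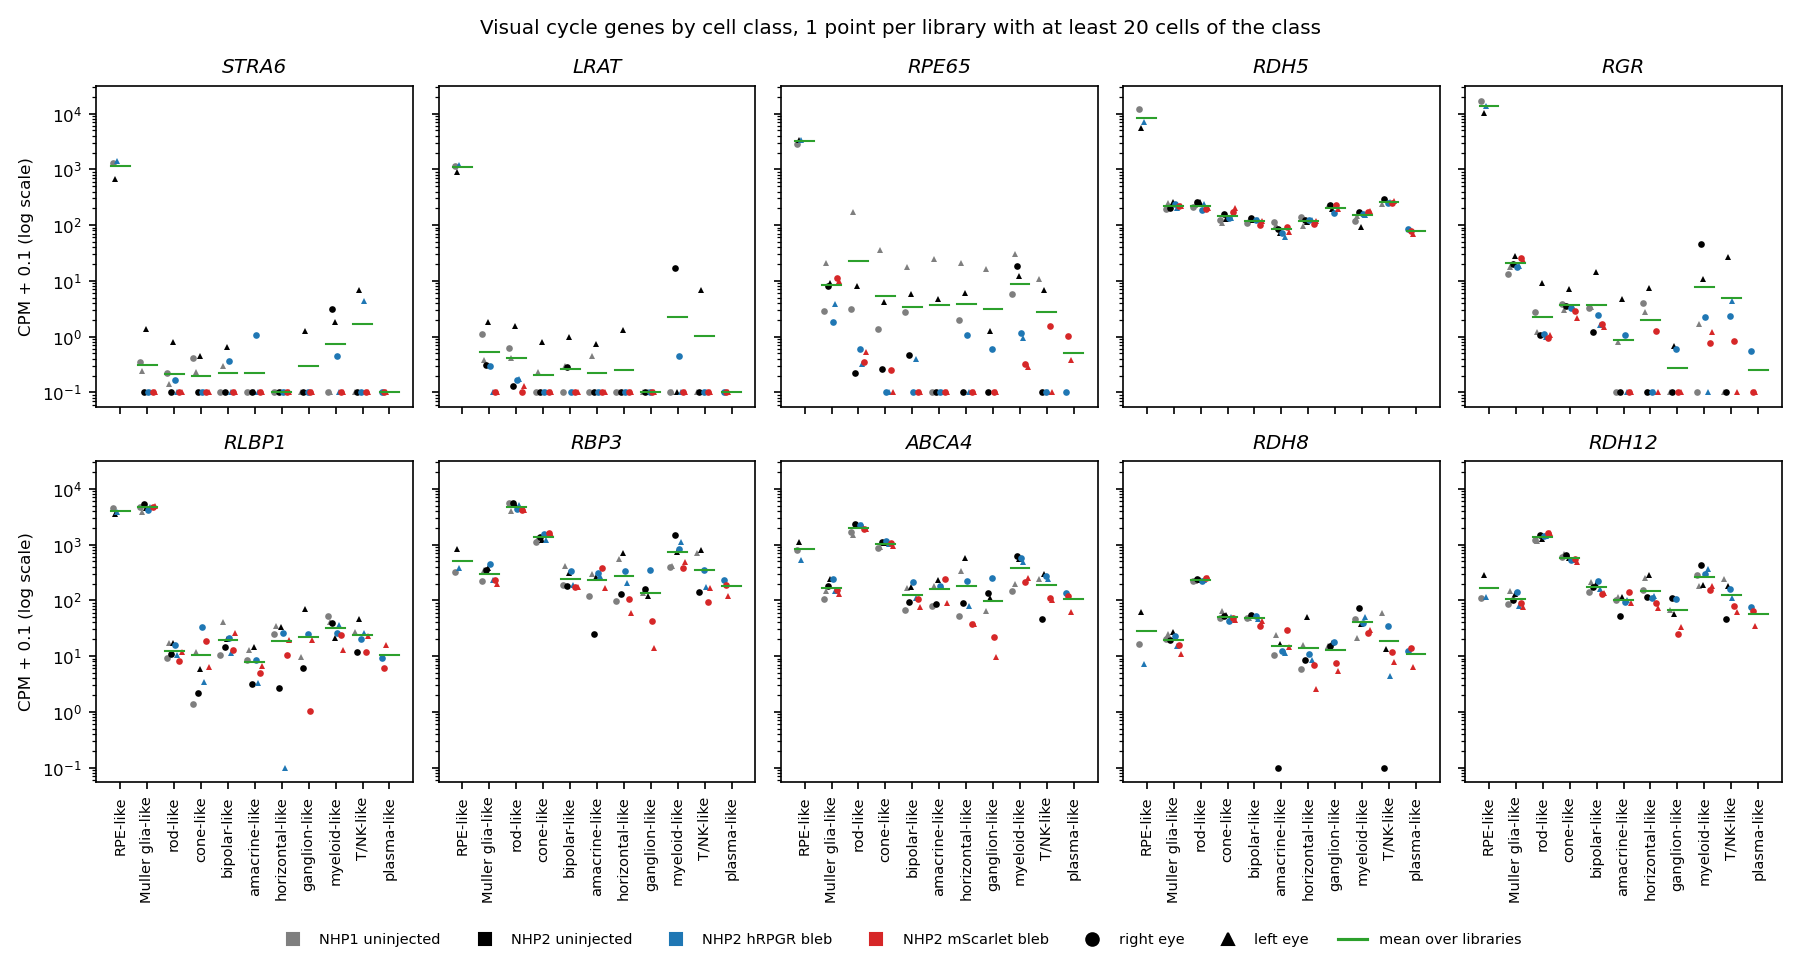
Level of each of the 10 visual cycle genes in each cell class, as CPM of the class sum on a log axis, with 1 point per library that held at least 20 cells of the class. STRA6, LRAT, RPE65, RDH5 and RGR stand highest in RPE-like cells, RLBP1 in Müller glia-like and RPE-like cells, and RBP3, ABCA4, RDH8 and RDH12 in rod-like cells, followed by cone-like cells.

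RBP3, ABCA4, RDH12 and RDH8 were each highest in rod-like cells, with cone-like cells next and no overlap between the 2 classes over the 8 libraries. RBP3 (chromosome 9, 49694461 to 49704706, plus strand, 4 exons), the interphotoreceptor carrier, stood at 4799 ± 659 CPM (SD, n = 8) in rod-like cells, from 4061 to 5603 CPM, and at 1359 ± 184 CPM in cone-like cells, from 1120 to 1601 CPM. ABCA4 (chromosome 1, 130045072 to 130172221, plus strand, 49 exons), the disc flippase, stood at 2000 ± 307 CPM in rod-like cells, from 1483 to 2315 CPM, and at 1016 ± 99.9 CPM in cone-like cells, from 868 to 1139 CPM. A pseudogene on the opposite strand overlaps ABCA4.

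RDH12 (chromosome 7, 129841033 to 129874698, plus strand, 9 exons), a photoreceptor retinal dehydrogenase, stood at 1381 ± 168 CPM (SD, n = 8) in rod-like cells, from 1140 to 1593 CPM, and at 575 ± 63.9 CPM in cone-like cells, from 490 to 679 CPM. RDH8 (chromosome 19, 9761727 to 9771417, plus strand, 6 exons), the outer-segment retinal dehydrogenase, stood at 235 ± 11.7 CPM in rod-like cells, from 219 to 250 CPM, and at 50.2 ± 6.74 CPM in cone-like cells, from 41.8 to 63.1 CPM. RDH8 thus had the tightest spread among rod-like libraries of these 4 genes. Cone-like cells overlapped the class that ranked next for RBP3 (myeloid-like, 379 to 1473 CPM), ABCA4 (RPE-like, 524 to 1110 CPM) and RDH8 (bipolar-like, 34.2 to 54.9 CPM), but not for RDH12 (myeloid-like, 151 to 432 CPM).

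The level of these 4 genes in the remaining retinal and immune classes lay mostly below that of free RNA. In Müller glia-like cells RBP3, ABCA4, RDH8 and RDH12 were at a median of 32.4%, 24.8%, 20.1% and 26.2% of the free level of their library. In rod-like cells they were at a median of 616%, 365%, 317% and 432% of it. In cone-like cells RDH8 was at a median of 68.3% of its free level (29.2% to 105%), and ABCA4, RDH12 and RBP3 were at medians of 175% (86.0% to 219%), 173% (67.0% to 264%) and 147% (44.4% to 382%), so that each of the 4 lay below its free level in the cone-like cells of some libraries.

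The promoter-side sequences of RBP3 and RGR are shown because each holds, within 250 bases before its start, a TAATCC hexamer, the core letters bound by the photoreceptor and RPE homeobox factors CRX and OTX2, and because RBP3 was highest in rod-like and RGR in RPE-like cells. The sequences are from the Mmul_10 genome with RefSeq transcript starts, run 5′ to 3′ on the strand of the gene and end at the base before the start, and the hexamer (TAATCC, or GGATTA where it lies on the other strand) is in capitals. The windows are chr9:49694241-49694460 (plus) for RBP3 and chr9:53805843-53806062 (minus) for RGR.
RBP3: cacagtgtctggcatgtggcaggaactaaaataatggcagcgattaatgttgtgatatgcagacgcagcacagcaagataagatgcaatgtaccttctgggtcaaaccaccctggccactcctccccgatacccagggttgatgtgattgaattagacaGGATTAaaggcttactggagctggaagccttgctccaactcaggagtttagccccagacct
RGR: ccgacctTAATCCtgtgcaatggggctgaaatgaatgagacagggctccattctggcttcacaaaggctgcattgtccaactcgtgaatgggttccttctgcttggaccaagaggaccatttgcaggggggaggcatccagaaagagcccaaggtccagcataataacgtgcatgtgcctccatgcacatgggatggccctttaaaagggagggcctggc
The hexamer lay 61 to 56 bases before the start of RBP3 and 213 to 208 before RGR, and the hexamer was found in 4 of the 10 members' windows and in 8.58% of the 21107 annotated promoter windows of 250 bases searched on both strands. The E-box CACGTG was found in none of the 10 windows (6.36% of all windows), CATGTG in 3 (RBP3, RGR and RLBP1, 7.99% of all windows) and the MAF-type string TGCTGA in 2 (RLBP1 and STRA6, 12.4% of all windows). These matches are a description of the letters and no binding was measured.

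The contrast between the photoreceptor classes was tested over the 8 libraries as cone-like minus rod-like log2(CPM + 1), with an exact two-sided sign-flip permutation test adjusted by Benjamini-Hochberg over the 15318 genes with at least 50 UMIs in the pair of classes. These libraries are punches from 4 eyes of 2 animals, 6 of them from NHP2, so they are not 8 independent animals and the p-values cover the spread between punches. Of the 9 members tested, 8 passed an adjusted p of 0.05, 7 of them lower in cone-like cells. Among the 7, LRAT and RPE65 rested on few cone-like UMIs in most libraries. The background was high, since 66% of all genes tested were called, 41.8% lower and 24.1% higher in cone-like cells, and the median over all genes was -0.15. STRA6 had too few UMIs to be tested.

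RDH8 had the largest difference among the members, -2.21 ± 0.21 on the log2 scale (SD, n = 8). RBP3 differed by -1.82 ± 0.37, RDH12 by -1.26 ± 0.31 and ABCA4 by -0.97 ± 0.13. These 4 genes and RDH5 (-0.63 ± 0.37) were lower in cone-like cells in 8 of 8 libraries, at exact p = 0.0078125, the smallest that 8 libraries allow, and adjusted p = 0.0145.

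RPE65 (-0.66 ± 0.70, lower in 7 of 8 libraries) and LRAT (-0.20 ± 0.24, lower in 7 of 8) passed at adjusted p = 0.0257 by the exact permutation test, from levels in rod-like cells of at most 7.91 CPM in 7 libraries for RPE65 and at most 1.46 CPM in all 8 for LRAT. Cone-like cells, on smaller class sums, held 5 LRAT UMIs in all 8 libraries beside 61 in rod-like cells. RPE65 had 0 cone-like UMIs in hRPGR right, hRPGR left and mScarlet left beside 14, 6 and 15 rod-like UMIs. A count of 0 on a smaller sum reads as lower, so depth and level were not told apart in these libraries. In NHP1 uninjected left RPE65 stood at 169 CPM in rod-like and 35.7 CPM in cone-like cells, beside 619 and 88.6 CPM of huRPE65. Without that library the RPE65 difference was -0.44 (adjusted p = 0.0482, exact permutation test), and whether reads of the transgene were counted as native RPE65 there was not tested. RGR was higher in cone-like cells in 7 of 8 libraries (0.75 ± 0.50, adjusted p = 0.0257 by the same permutation test), at 2.07 to 7.18 CPM against 0.84 to 8.98 CPM in rod-like cells. RLBP1 did not pass (-0.76 ± 1.25, exact p = 0.125, adjusted p = 0.162), and without 2 cone-like clusters that came almost wholly from 1 library each it was -1.48 at adjusted p = 0.0141. These 4 low-level values moved with the CPM added before the log, where 10 or 0.1 in place of 1 gave -0.028 and -0.84 for LRAT, -0.34 and -1.41 for RPE65 and 0.17 and 1.14 for RGR, and 10 gave -0.28 for RLBP1. With free RNA subtracted RGR was 1.35 and RLBP1 -0.043, RPE65 was -0.24 and no longer passed (adjusted p = 0.743), and with rod-like cells of at least 0.5% mitochondrial UMIs LRAT did not (adjusted p = 0.181).

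In the 3 libraries with at least 20 RPE-like cells, these held more ABCA4 relative to RBP3 than the photoreceptor classes did. ABCA4 was at 812, 1110 and 524 CPM there, beside 327, 847 and 375 CPM of RBP3, so RPE-like cells held 2.48, 1.31 and 1.40 ABCA4 UMIs for each RBP3 UMI. The same ratio ranged from 0.30 to 0.50 among rod-like, from 0.62 to 0.90 among cone-like and from 0.42 to 0.66 among Müller glia-like cells, and from 0.39 to 1.20 in free RNA. For the RPE-like cells the exact 95% intervals, which cover counting error only, were 2.16 to 2.85, 1.13 to 1.52 and 0.97 to 2.03. The free RNA of the same libraries was at 0.66, 0.47 and 0.85. In each of the 3 libraries the ratio of the RPE-like cells was above that of every other of these sources. The 4 smaller RPE-like sets did not all share this order, with 0.57 in NHP1 uninjected left and 0.50 in mScarlet right, both below the cone-like cells of their library (0.69 and 0.66), and with 0.94 in NHP2 uninjected right and 1.47 in hRPGR right. After thinning to 3000 UMIs an ABCA4 UMI was found in 68.4% to 89.2% of RPE-like cells (73, 37 and 19 cells were deep enough; 65.4% to 97.5% unthinned, median depth 4706.5 to 11558 UMIs) and in 14.5% to 46.4% of T/NK-like cells, a lymphoid class that should lack the gene (12.5% to 50.5% unthinned, median depth 3538.5 to 5010 UMIs). RDH12, at 108, 282 and 113 CPM, and RDH8, at 16.6, 61.1 and 7.08 CPM, stood at 10.0% to 45.6% of the free level in RPE-like cells. ABCA4 there was at 205% of its free level in NHP1 uninjected right but below it in NHP2 uninjected left and hRPGR left, at 88.8% and 81.1%.

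The areas were compared within NHP2, to ask whether visual cycle transcripts differ in retina that received a vector, over 6 libraries with edgeR's quasi-likelihood test and Benjamini-Hochberg adjustment over all genes tested. In rod-like cells the ordering of the 6 libraries is given as uninjected right and left, hRPGR right and left, mScarlet right and left. RBP3 stood at 5603, 5235, 4428, 5156, 4112 and 4229 CPM, ABCA4 at 2315, 2279, 2198, 2231, 1939 and 1880 CPM, and RDH5 at 256, 260, 188, 241, 195 and 202 CPM. The mScarlet libraries lay below the uninjected ones for these 3 genes and were lowest of the 6 for RBP3 and ABCA4. The share of all genes with such an order of libraries was not counted.

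RDH12 stood at 1462, 1253, 1411, 1408, 1580 and 1593 CPM, highest in the mScarlet libraries on this scale only. After the TMM scaling used in the tests, uninjected right (1597 normalised CPM) was above mScarlet right and left (1541 and 1506), the mScarlet minus uninjected log2 difference was -0.052 in the right and 0.25 in the left eye, and RDH12 did not pass (log2 fold change 0.087 ± 0.15, SE, edgeR adjusted p = 0.748). RDH8 stood at 243, 236, 219, 231, 250 and 248 CPM, also highest in the mScarlet libraries on this scale. After TMM scaling its uninjected libraries (266 and 239 normalised CPM) overlapped the mScarlet ones (244 and 235). RLBP1, at 8.03 to 16.9 CPM, and RGR, at 0.84 to 1.01 CPM in 5 libraries and 8.98 CPM in the uninjected left library, were low throughout.

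**Figure D2:**
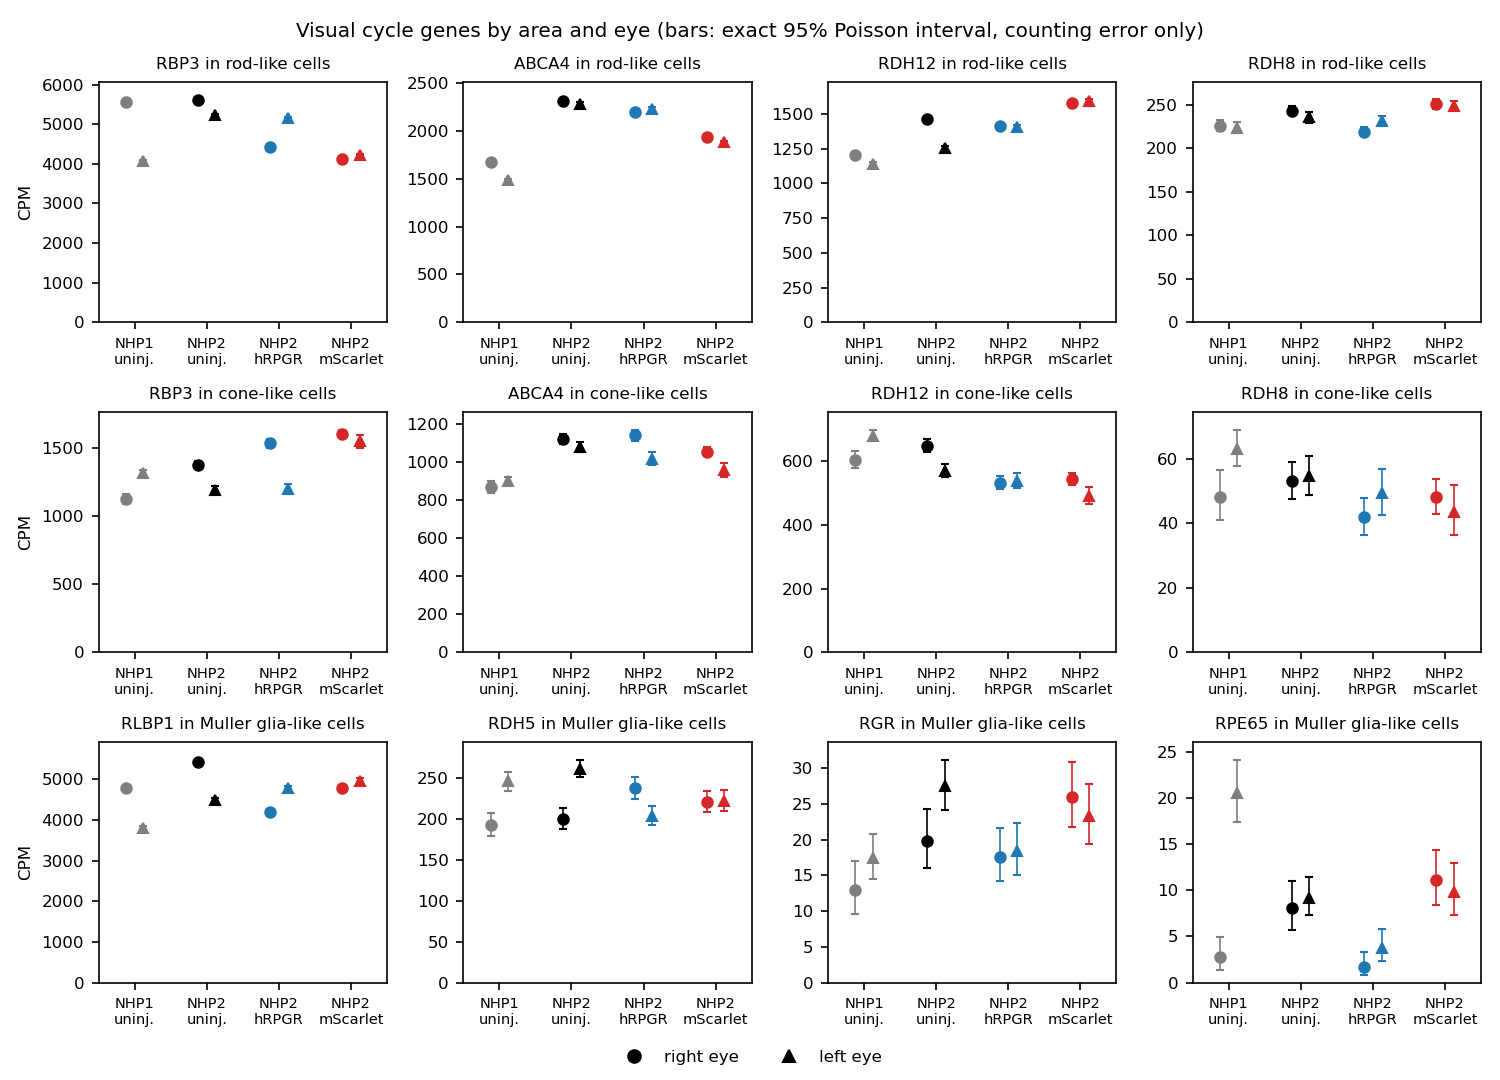
Level of visual cycle genes by animal and area in all 8 libraries, in CPM of the class sum on linear axes that start at 0, with the right eye as circles, the left eye as triangles and bars for the exact 95% Poisson interval, which covers counting error only. Within NHP2, RBP3 and ABCA4 in rod-like cells are lowest in the mScarlet libraries, and RPE65 in Müller glia-like cells is lowest in the hRPGR libraries.

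None of the 8 members tested in rod-like cells passed in mScarlet against uninjected area by edgeR, where 1.93% of all genes tested were called. At an unadjusted p under 0.05 there were 5 members, all lower, where 24.3% of all genes reached that p, and DESeq2 called 4 of them (RDH5, RGR, RBP3 and ABCA4), where it called 10.6% of all genes. RDH5 differed by -0.51 ± 0.15 (log2 fold change, SE, edgeR adjusted p = 0.110), RBP3 by -0.51 ± 0.17 (edgeR adjusted p = 0.138) and ABCA4 by -0.40 ± 0.13 (edgeR adjusted p = 0.136). The median over the 8 members was -0.51 against 0.0046 over all genes. RPE65 (-3.59) and RGR (-2.55) rested on the uninjected left library, which held 184 and 209 of their UMIs, and without it RPE65 was 1.24 and RGR -0.32. With the unnamed clusters that carried rod markers counted as rods, RDH5 was -0.30 (edgeR adjusted p = 0.685) and RBP3 -0.21 (edgeR adjusted p = 0.832).

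**Figure D3:**
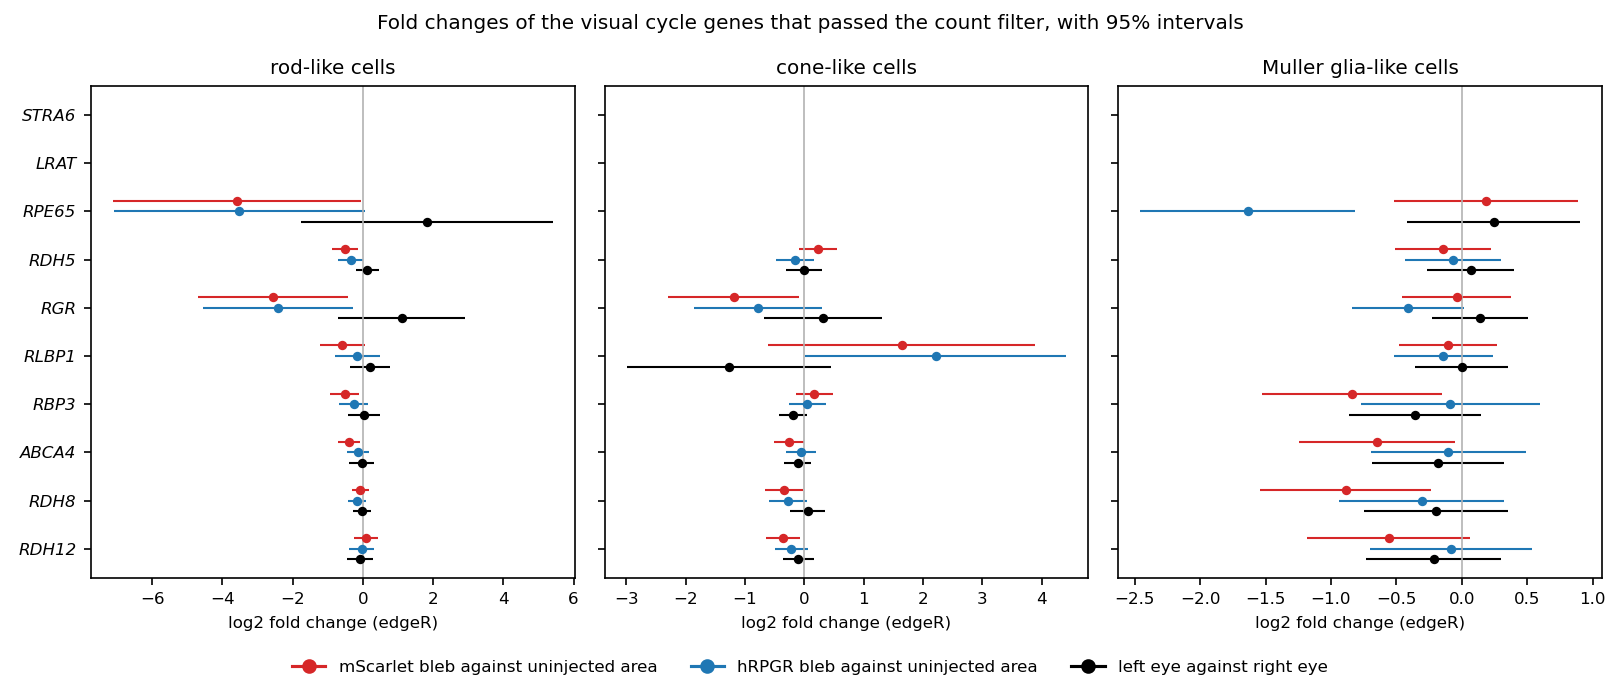
Log2 fold change of each visual cycle gene in rod-like, cone-like and Müller glia-like cells for mScarlet against uninjected area, hRPGR against uninjected area and left against right eye, with edgeR's 95% interval. No member passed an adjusted p of 0.05 in any panel, and most intervals cross 0.

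Libraries also differed in the share of rod-like cells with under 0.5% mitochondrial UMIs, and levels are given for such cells beside the rest, with no test. The share was 3.99% and 3.36% in the uninjected libraries of NHP2, 37.1% and 12.5% in the hRPGR and 33.9% and 39.7% in the mScarlet libraries, and 6.57% and 74.7% in NHP1 right and left. These shares count named rod-like cells only, and clusters with rod markers that stayed unnamed also held low-mitochondrial cells. A cluster of 3391 such cells, 75.1% of them from NHP2 uninjected left, had a median of 0.074% mitochondrial UMIs. Another of 2868 cells, 63.6% of them from hRPGR right, had a median of 0.057%. The shares with such clusters counted were not tested. In the 4 vector libraries RBP3 was at 2081 to 2295 CPM in the low-mitochondrial rods against 4992 to 5508 CPM in the others, and ABCA4 at 1341 to 1604 against 2178 to 2490 CPM. RDH12 went the other way, at 1812 to 2137 against 1214 to 1354 CPM, and so did RDH8, at 285 to 333 against 187 to 220 CPM. In the 3 uninjected libraries with at most 0.043 CPM of huRPE65 in rod-like cells, RBP3 was at 3542 to 4063 against 5302 to 5759 CPM and ABCA4 at 1404 to 2030.4 against 1702 to 2331 CPM. Both genes were also lower in the low-mitochondrial rods of each of these libraries, but by a smaller share than in the vector libraries. RDH12 (1250.5 to 1455 against 1199.6 to 1462 CPM) and RDH8 (219 to 243 against 227 to 243 CPM) lay close together there. NHP1 uninjected left, which carried 619 CPM of huRPE65 in its rod-like cells, gave 3917 against 4578 CPM for RBP3, 1441 against 1631 CPM for ABCA4, 1147 against 1114 CPM for RDH12 and 228 against 209 CPM for RDH8.

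Among rod-like cells with at least 0.5% mitochondrial UMIs, RBP3 differed by -0.15 (edgeR adjusted p = 0.623) and ABCA4 by -0.14 (edgeR adjusted p = 0.591) between mScarlet and uninjected area, while RDH5 differed by -0.36 (edgeR adjusted p = 0.233). Clusters that carried rod markers but stayed unnamed held 9.32% and 7.29% of the cells in the mScarlet libraries against 22.1% and 36.4% in the uninjected ones.

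**Figure D4:**
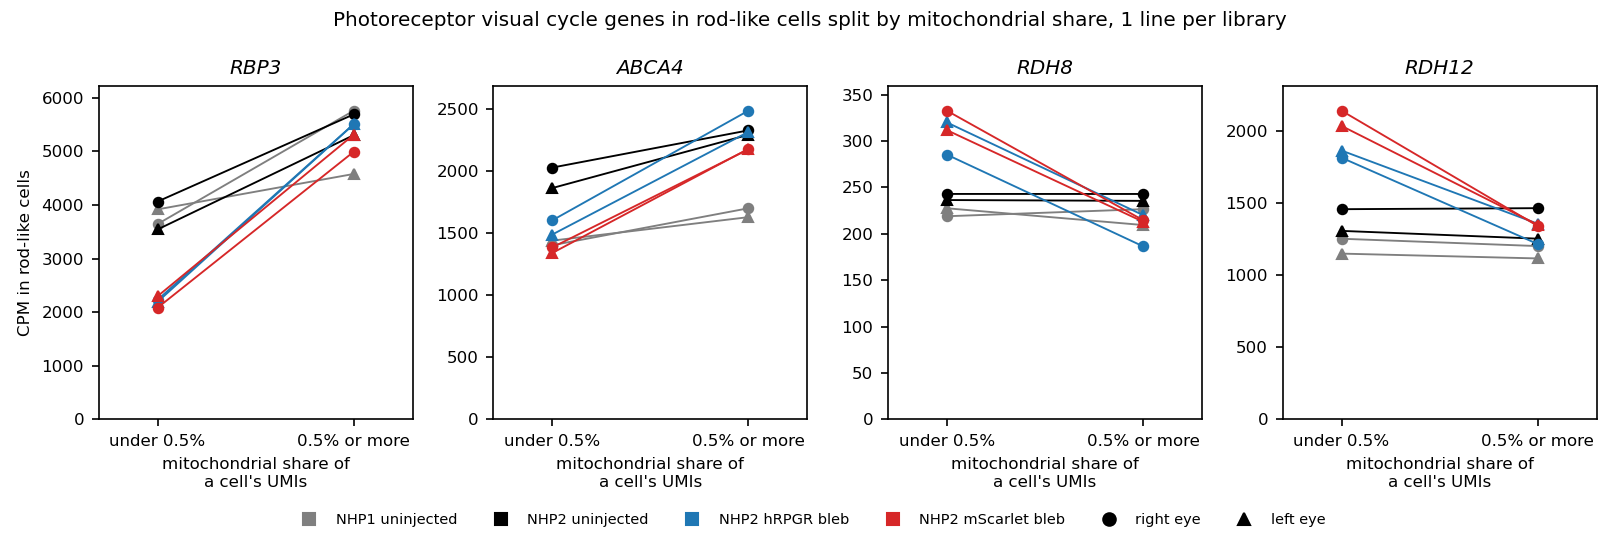
Level of RBP3, ABCA4, RDH12 and RDH8 in rod-like cells with under 0.5% and with at least 0.5% mitochondrial UMIs, in CPM, with a line for each of the 8 libraries. RBP3 and ABCA4 are lower in the low-mitochondrial rods of all 8 libraries, and RDH12 and RDH8 are higher there in the 4 vector libraries of NHP2, while they lie close together in the 4 libraries labelled uninjected, of which NHP1 left carried 619 CPM of huRPE65 in rod-like cells.

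In hRPGR against uninjected area, 0 of 8 members passed in rod-like cells by edgeR, with 0% of all genes called, 1 member (RGR) at an unadjusted p under 0.05 (5.76% of all genes) and none by DESeq2 (0.653%). RBP3 differed by -0.26 ± 0.17 (SE), with a 95% interval from -0.67 to 0.15. In mScarlet against hRPGR 0 of 8 members passed, with 0% of all genes called, none at an unadjusted p under 0.05 (7.94%) and none by DESeq2 (0.986%). In left against right eye 0 of 8 passed, with 0% of all genes called, none at an unadjusted p under 0.05 (0.993%) and none by DESeq2 (0.0556%). The eye difference of RBP3 was 0.034, with an interval from -0.42 to 0.49.

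In cone-like cells RBP3 stood at 1376, 1190, 1532, 1195, 1601 and 1545 CPM in the same order of libraries, so the mScarlet libraries were higher than the uninjected ones, the opposite order to rod-like cells. RDH12 stood at 648, 570, 532, 537, 543 and 490 CPM, with each vector library below each uninjected one. RDH8 stood at 52.9, 54.5, 41.8, 49.3, 48.1 and 43.5 CPM, with the vector libraries again below the uninjected ones. The share of all genes that order the libraries in these ways was not counted.

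None of the 7 members tested in cone-like cells passed in mScarlet against uninjected area by edgeR, where 0.652% of all genes were called, with 3 at an unadjusted p under 0.05 (RDH12, RDH8 and RGR), where 15.8% of all genes reached that p, and none by DESeq2, which called 2.45% of all genes. RDH12 differed by -0.36 ± 0.12 (SE, edgeR adjusted p = 0.212) and RDH8 by -0.34 ± 0.14 (edgeR adjusted p = 0.287). None passed in hRPGR against uninjected area, where edgeR called 0.0172% of all genes, with 1 member at an unadjusted p under 0.05 (6.17% of all genes) and none by DESeq2 (0.36%). None passed in mScarlet against hRPGR (0.111%), with 1 member at an unadjusted p under 0.05 (8.55%) and none by DESeq2 (0.412%). In left against right eye none passed (0.00858%), with no member at an unadjusted p under 0.05 (2.13%) and none by DESeq2 (0%).

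RLBP1 in cone-like cells stood at 2.05, 5.78, 32.9, 3.38, 18.3 and 6.21 CPM, high in hRPGR right and mScarlet right. These are the libraries that made up the 2 clusters of 181 cone-like cells named above, and their cone-like cells also held the most Müller glia markers, 355 and 244 CPM against 25.4 to 56.2 CPM in the other NHP2 libraries. Without hRPGR right the hRPGR difference of RLBP1 went from 2.21 to -0.18.

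In Müller glia-like cells RLBP1, the member they carry most, stood at 5420, 4489, 4205, 4785, 4789 and 4964 CPM, with the areas overlapping. RGR stood at 19.9, 27.5, 17.6, 18.5, 26.0 and 23.3 CPM, with the hRPGR libraries lowest. RPE65 stood at 8.03, 9.20, 1.74, 3.77, 11.1 and 9.82 CPM, on 38, 81, 9, 21, 57 and 51 UMIs, so the hRPGR libraries were lowest. The share of all genes that place the hRPGR libraries lowest was not counted.

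RPE65 in Müller glia-like cells was 1.82 ± 0.35 (log2 fold change, SE) higher in mScarlet than in hRPGR area, at an edgeR adjusted p = 0.246, while DESeq2 gave an adjusted p of 0.0308. In hRPGR against uninjected area its log2 fold change was -1.64 ± 0.35 (SE), at an edgeR adjusted p = 0.833, and with free RNA subtracted it was -0.82. The 9 RPE markers in the same Müller glia-like cells summed to 205, 205, 199, 237, 379 and 313 CPM, and the free level of RPE65 was 2.91, 97.4, 4.23, 5.00, 1.45 and 1.77 CPM, with the most free RPE65 in the uninjected left library, which also held 56 of the RPE-like cells. The part of either in the RPE65 values was not tested.

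In all, 0 of the 8 members tested in Müller glia-like cells passed by edgeR in mScarlet against uninjected area, where 0.413% of all genes were called, with 3 members at an unadjusted p under 0.05 (14.7% of all genes) and none by DESeq2 (3.12%). None passed in hRPGR against uninjected area (0.0078%), with 1 member at an unadjusted p under 0.05 (3.89%) and none by DESeq2 (0.218%). In mScarlet against hRPGR none passed by edgeR (0.0078%), with 2 members at an unadjusted p under 0.05 (10.5%) and 1 by DESeq2 (0.998%). In left against right eye none passed (0%), with no member at an unadjusted p under 0.05 (3.35%) and none by DESeq2 (0.172%). The photoreceptor genes RDH8 (-0.89), RBP3 (-0.84) and ABCA4 (-0.65) had the lowest values in mScarlet against uninjected area, and the rod markers summed to 3592 and 4235 CPM in the uninjected and 2222 and 1896 CPM in the mScarlet Müller glia-like cells.

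RPE65 in rod-like cells was an exception in 1 library. In the uninjected left eye of NHP1 it stood at 169 CPM, on 4372 UMIs, against 0.12 to 7.91 CPM in the other 7 libraries. The same rod-like cells held 619 CPM of huRPE65, on 16032 UMIs, although the label of the library is uninjected, and no other library had more than 0.043 CPM of huRPE65 in rod-like cells.

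Native RPE65 and huRPE65 were found together in single cells of that library. Of 1698 rod-like cells with a huRPE65 UMI, 767 (45.2%, exact 95% interval 42.8% to 47.6%, median 7494 UMIs) also had a native RPE65 UMI, against 144 of 1868 (7.71%, median 7268 UMIs) without one. The interval covers counting error within that library only. In Müller glia-like cells the shares were 13.9% and 9.76%, and in NHP1 uninjected right 1.60% of rod-like cells without huRPE65 had native RPE65.

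The count of native RPE65 per huRPE65 UMI was 0.27 in rod-like, 0.40 in cone-like, 0.24 in Müller glia-like and 0.19 in bipolar-like cells, and 0.21 in free RNA. STRA6 and LRAT did not accompany it, with 1 and 8 UMIs in those rod-like cells beside 4372 of RPE65. In NHP2, which did not receive that vector, 4 huRPE65 UMIs were counted beside 1261 of native RPE65 in the RPE-like cells of the uninjected left library. Whether reads of the transgene were assigned to the native gene was not tested. Without that library, RPE65 in rod-like cells of the series lay between 0.12 and 7.91 CPM.

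**Figure D5:**
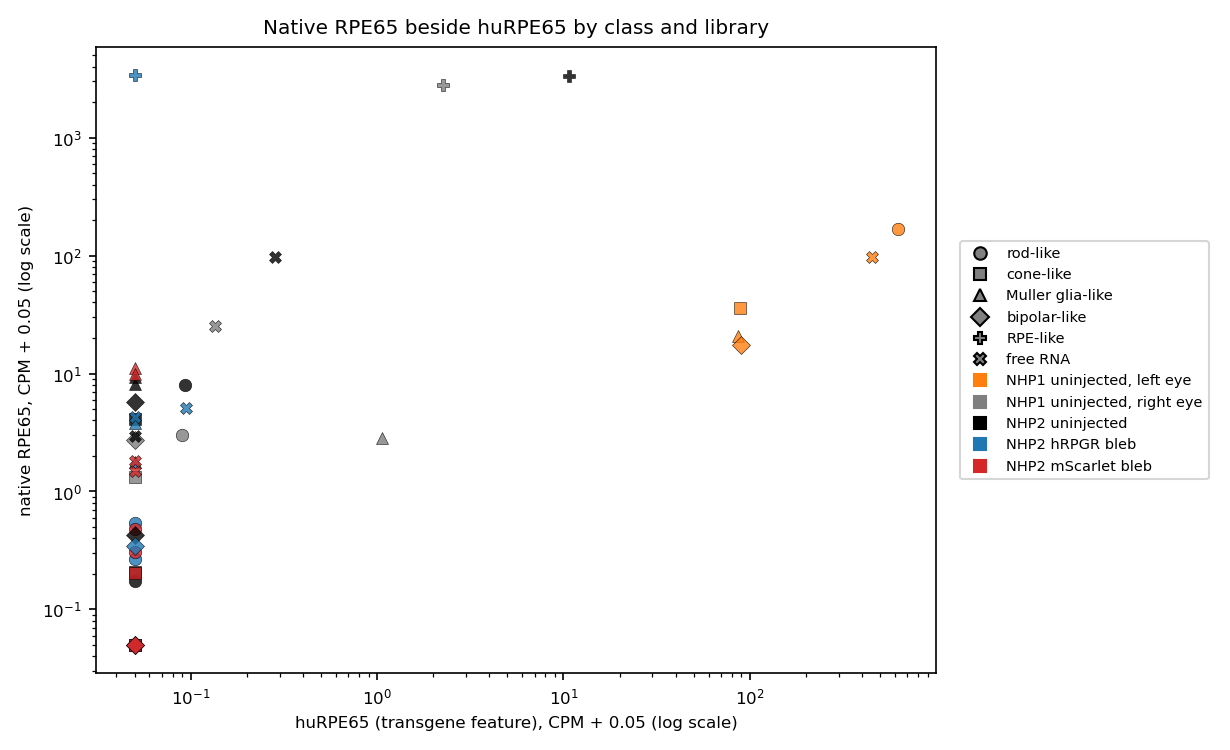
Native RPE65 against huRPE65 in rod-like, cone-like, Müller glia-like, bipolar-like and RPE-like cells of each library with at least 20 cells of the class and in free RNA, as CPM + 0.05 on log axes, so that a value of 0 lies at 0.05. The classes of NHP1 uninjected left lie apart at high huRPE65, with native RPE65 at 169 CPM in rod-like cells, while the RPE-like classes have 2805 to 3363 CPM of native RPE65.

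Of a wider list of 34 genes of retinoid binding, oxidation and signalling, 33 were in the files and 20 to 22 were tested in each class. A single gene of it passed in any area or eye comparison, 1 of the 20 tested in cone-like cells in mScarlet against uninjected area, where 0.652% of all genes were called. RARB, a nuclear receptor for retinoic acid, fell by 0.88 on the log2 scale in cone-like cells in mScarlet against uninjected area (SE 0.12, edgeR adjusted p = 0.0293), from 129 and 137 to 76.7 and 66.8 normalised CPM, with 113 and 119 in the hRPGR libraries. In the same contrast RARB stood at 74.7 and 89.7 against 75.2 and 71.3 normalised CPM in rod-like cells, and at 126 and 111 against 144 and 158 in Müller glia-like cells, neither of which passed. The cone call of RARB was lost with the eye as a block (edgeR adjusted p = 0.0763) and with free RNA subtracted (edgeR adjusted p = 0.160). It was also lost without uninjected right or left or mScarlet right or left. Over the 13 alternatives the log2 fold change of RARB stayed between -0.998 and -0.784.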

How the data were processed

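Cells were captured with the 10x 5' version 2 kit. Per the file headers and the study's methods, the authors deposited unfiltered UMI counts per barcode and gene, made with Cell Ranger 8.0.1 against Mmul_10 with added huRPE65, coRPGR and mScarlet features. The members and gene lists were chosen with earlier results of these data known. All other values were computed here.

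Barcodes with fewer than 1500 UMIs, fewer than 300 genes or over 20% mitochondrial UMIs were dropped. The cells with the highest doublet scores were removed at a set rate of 0.8% of cells per 1000 cells. The automatic doublet call marked at most 0.02% of a library's cells and was not used. Clustering used 3000 variable genes, 40 principal components, 15 neighbours and Leiden resolution 2 (scanpy 1.11.5, Python 3.11.15). The study's own cell annotation was not used here, and names were rebuilt from marker lists. A cluster stayed unnamed with fewer than 3 raised markers, a marker score under 2 times that of the next class, or leading genes, haemoglobin or doublet scores that went against its name. These naming rules were set after the clusters were seen.

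Counts were summed per class and library. Areas and eyes were compared over the 6 NHP2 libraries by edgeR's quasi-likelihood test (version 4.0.16 in R 4.3.3), after TMM scaling and its default filter on low counts (filterByExpr), at an adjusted p of 0.05. Cone-like and rod-like cells were compared by sign flips over the 8 libraries, adjusted over all 15318 genes rather than over the members as first planned. DESeq2 1.42.0, other scaling, filters, cell sets, free-RNA subtraction, the eye as a block and leaving out each library were alternatives, and 2 cell sets were added after seeing the data. Both tests were tested on simulated data with known changes. With 8 libraries the smallest p of the sign-flip test is 0.0078125. A gene can therefore pass its adjustment only where many of the genes tested differ. Replicate numbers stand for the same eye of the same animal, so they pair the samples. Deviations from the area means correlated between same-eye libraries at -0.40, 0.29 and -0.24 in rod-like, -0.29, -0.15 and 0.31 in cone-like and 0.093, 0.099 and -0.054 in Müller glia-like cells.

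Genes named are the members, huRPE65, any gene of the wider list that passed over all genes, and the 3 genes most correlated with each member over class means. These correlated genes were taken among genes with a symbol and at least 50 UMIs over all cells. The nearest genes to RPE65 and RDH5 are also named. Coordinates and promoter letters are from the Mmul_10 genome with RefSeq annotation. A library of the NHP1 injected area was not analysed here, and some sequences and correlated genes are not reported here.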

Additional observations from a re-analysis of the deposited data

Results flagged for a closer look

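The RBP3 differences between areas had opposite signs in rod-like and cone-like cells within each eye, although RBP3 passed in none of these comparisons. Between mScarlet and uninjected area the log2 difference was -0.61 in the right and -0.41 in the left eye in rod-like cells, and 0.11 and 0.24 in cone-like cells. Between hRPGR and uninjected area it was -0.53 and -0.0086 in rod-like cells and 0.085 and 0.015 in cone-like cells, so the left eye was near 0 in both classes. Between mScarlet and hRPGR area it was -0.083 and -0.40 in rod-like cells and 0.026 and 0.22 in cone-like cells. RDH12 had the reverse order between mScarlet and hRPGR area, at 0.19 and 0.064 in rod-like and -0.0090 and -0.28 in cone-like cells. The difference between the classes was not tested in any of these, and the 3 contrasts share libraries. The share of named rod-like cells with under 0.5% mitochondrial UMIs differed between the same areas. Among the other rod-like cells RBP3 differed by -0.15 between mScarlet and uninjected area by edgeR, against -0.51 over all rod-like cells.

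The rod-like cells of the uninjected left library of NHP1 held 619 CPM of huRPE65, a transgene feature that the label of the library does not lead one to look for, and 169 CPM of native RPE65. In the uninjected right library of the same animal huRPE65 was at 0.040 CPM and native RPE65 at 2.98 CPM in rod-like cells.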

How the results depend on the processing

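Of 171 alternative settings for the counts of members called, 160 stayed within 1.5 times the count given. In rod-like cells, mScarlet against uninjected area went from 0 to 4 members by DESeq2 (RDH5, RGR, RBP3 and ABCA4, with 10.6% of all genes called) and to 3 with no filter on low counts (LRAT, RDH5 and RGR, 6.57% of all genes), and leaving out a library gave 0 to 2 (RDH5 and RBP3 without hRPGR right, 9.78% of all genes, and RDH5 without hRPGR left, 9.18%). Left against right eye in rod-like cells gave 0 to 2 (LRAT and RPE65 without hRPGR right or left, where 1.34% and 1.15% of all genes were called). In cone-like cells 2 members (RPE65 and RLBP1) were called with no filter in mScarlet (5.68% of all genes) and also 2 in hRPGR against uninjected area (2.12%), and the eyes gave 0 to 1 (RLBP1 without uninjected right or left, 0.942% and 0.92% of all genes). In Müller glia-like cells DESeq2 called 1 (RPE65) in mScarlet against hRPGR area (0.998% of all genes). Cone-like against rod-like cells had 6 to 9 members called, against 8 as given, with 62.6% to 68.4% of all genes called, with RLBP1 gained without the 2 single-library clusters, RPE65 lost and LRAT not tested with free RNA subtracted, LRAT lost among rods above the mitochondrial minimum, and 7 when NHP2 uninjected left was left out, where LRAT had too few UMIs to be tested. The causes were not tested.

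Directions turned in 6 cases, none of them called. With free RNA subtracted, RGR in rod-like cells was 0.63 in mScarlet and 0.40 in hRPGR against uninjected area, and RBP3 in Müller glia-like cells was 1.35 in mScarlet against uninjected and 0.15 against hRPGR area. Leaving out a library gave -4.57 to 1.24 for RPE65 in rod-like cells (mScarlet against uninjected area) and -0.18 to 3.10 for RLBP1 in cone-like cells (hRPGR against uninjected area).

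Other member values kept their direction but moved by over 1.5 times, beside those the comparisons above already give. With free RNA subtracted, RPE65 in Müller glia-like cells was -0.82 in hRPGR against uninjected area, RGR in cone-like cells was -0.68 and ABCA4 in Müller glia-like cells -1.31 in mScarlet against uninjected area. With unnamed rod clusters counted, RDH5 in cone-like against rod-like cells was -0.37. Without the 2 single-library clusters RLBP1 in cone-like cells was 0.16 in hRPGR against uninjected area. Without uninjected left, RGR in hRPGR against uninjected area was -0.17 in rod-like cells and in mScarlet against uninjected area -0.61 in cone-like cells, and without hRPGR right and left RBP3 in Müller glia-like cells was -0.18 and -1.15 in mScarlet against hRPGR area.

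With the eye as a replicate block, 0 members were called in each area comparison, as without it. Over all genes the block took the rod calls in mScarlet against uninjected area from 278 to 4, the cone calls from 76 to 24 and the Müller glia calls from 53 to 34, and in hRPGR against uninjected area the cone calls from 2 to 4 and in mScarlet against hRPGR area the Müller glia calls from 1 to 3.

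The all-gene calls in mScarlet against uninjected area, 278, 76 and 53 in rod-like, cone-like and Müller glia-like cells, were 1522, 286 and 400 by DESeq2, 1431, 1107 and 287 with no filter, and 632, 7 and 4 with free RNA subtracted. Leaving out a library gave 0 to 1462, 10 to 296 and 1 to 615. The rod calls fell to 27 with unnamed rod clusters counted and to 148 with the mitochondrial minimum, the cone calls rose to 183 without the 2 single-library clusters, and the Müller glia calls to 85 in cells of at least 3000 UMIs. In hRPGR against uninjected area the 0, 2 and 1 calls were 94, 42 and 28 by DESeq2, 108, 413 and 6 with no filter, and ranged over 0 to 224, 0 to 75 and 1 to 32 without a library. In mScarlet against hRPGR area the 0, 13 and 1 calls were 142, 48 and 128 by DESeq2, 142, 331 and 44 with no filter, 2, 2 and 0 with free RNA subtracted, and ranged over 0 to 164, 1 to 48 and 0 to 75 without a library (the cone calls fell to 1 without mScarlet left and to 7 without mScarlet right), with 23 cone calls without the single-library clusters. Between eyes the 0, 1 and 0 calls were 8, 0 and 22 by DESeq2, 0, 52 and 18 with no filter, and ranged over 0 to 201, 1 to 115 and 0 to 82 without a library. Every alternative not named here gave 0 to 2 calls where the count given was 0 to 2.

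Each area had 2 libraries from 1 animal, and position in the retina, area, vector, vector dose and vector preparation cannot be told apart. Outside the RPE-like class STRA6 and LRAT rest on few UMIs, with 22 and 61 in all rod-like cells, and the RPE-like levels rest on 3 libraries with at least 20 cells.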

Other observations

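Among genes with a symbol and at least 50 UMIs, those most like a member over the 11 class means of log2(CPM + 1) are given. They are a description, since the class means share libraries and a few classes set each correlation. STRA6 was closest to PLA2G2A (Pearson r = 0.9987), SLC6A20 and LRAT. RPE65 was closest to LIPG (r = 0.9934), SLC39A12 and VEPH1, and RDH5 to SPG21 (r = 0.979) and CST6. RLBP1, which is shared by RPE-like and Müller glia-like cells, was closest to PLAC9 (r = 0.9909), AJUBA and FXYD3.

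Among the photoreceptor members, RBP3 was closest to PRPH2 (r = 0.9932), a structural protein of the outer-segment disc rim, AIPL1, a chaperone of the phosphodiesterase, and GAS7. RDH12 was closest to RP1 (r = 0.9721) and RP1L1, which encode proteins of the photoreceptor axoneme, and PNO1. ABCA4 was closest to TMEM244 (r = 0.9804), PROSER2 and CFAP47, and RDH8 to PTP4A3 (r = 0.9744), COL16A1 and ORC1.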
